A study of Rattus norvegicus and Mus musculus with 22 samples.

Results

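The genes described here encode the CD3 complex and the coreceptors of T cells. They are the CD3 chain genes Cd3d, Cd3e, Cd3g and Cd247, the coreceptor genes Cd4, Cd8a and Cd8b, and the T cell surface genes Cd2, Cd5 and Cd6. The 10 genes were chosen by symbol from 33364 symbols listed over 4 count tables of RNA-seq. All 10 were found in the tables of day 7 whole lung, lung CD4 isolates and mouse spleen, where Cd8b is listed as Cd8b1. The day 56 whole lung table lists 9 of them, and Cd5 was not analysed at that day.

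Counts of 22 libraries were used, 16 of rat and 6 of mouse. Every rat had Sugen-hypoxia, in which a VEGF receptor inhibitor and low oxygen together produce pulmonary hypertension, so there is no untreated group. Rats without interleukin 6 (IL6KO) were set against wild-type rats (WT) in 3 settings. The first was CD4-positive cells taken from day 7 lungs with magnetic beads (MACS), with 2 libraries for IL6KO and 2 for WT. The others were whole lung at day 7 and whole lung at day 56, each with 3 libraries for IL6KO and 3 for WT. The mice carried SM22alpha-Cre and the Ai14 reporter, which turns a cell and its progeny red (tdTomato) once Cre has acted. The SM22alpha promoter is best known from smooth muscle, and the reporter does not tell when Cre acted. CD4-positive splenocytes of these mice were sorted by FACS on the reporter, which gave 3 tdTomato-positive and 3 tdTomato-negative libraries, one pair for every mouse. The labels give no strain and no age, and do not say which piece of Il6 is missing. They do not say that the numbered samples are separate animals, so the p-values below measure the spread between these samples, which may be technical. Whether isolates and whole lungs came from the same rats is not given either.

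The T cell receptor binds peptide on MHC but has no signaling tail of its own, and the CD3 chains carry the tyrosine motifs that are phosphorylated when it is engaged. CD4 binds MHC class II and CD8 binds MHC class I, and both bring the kinase LCK to the receptor. In rats the coreceptors are not limited to T cells: monocytes and macrophages also carry CD4, and natural killer (NK) cells carry the CD8 alpha chain without the beta chain. CD2 is an adhesion receptor that binds CD48 in rodents, and CD5 and CD6 are scavenger receptor family proteins that tune the strength of receptor signaling.

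RefSeq promoter windows, 250 bases before to 50 after the transcription start on the rat build GRCr8, were matched by symbol for 7 of the 10 genes. Cd4, Cd8b and Cd6 were not matched. The windows of 4 of the genes on which the results below turn are printed 5′ to 3′ on the gene's own strand, so that the start region of the gene with the largest difference can be read beside those of 3 genes with smaller ones. Capitals mark matches, on either strand, to the letters of 4 motifs. They are TGTGGT for RUNX factors and AGGAAGT for ETS factors. For GATA factors they are AGATAA and for E-box factors CAGCTG.
Cd8a (chr4:104923866-104924165, plus strand): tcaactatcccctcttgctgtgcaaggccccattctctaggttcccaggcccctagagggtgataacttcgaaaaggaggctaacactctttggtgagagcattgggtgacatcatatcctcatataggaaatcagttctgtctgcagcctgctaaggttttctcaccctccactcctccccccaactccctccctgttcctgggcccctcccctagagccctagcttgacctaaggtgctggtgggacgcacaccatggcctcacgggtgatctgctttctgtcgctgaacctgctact
Cd247 (chr13:80576019-80576318, plus strand): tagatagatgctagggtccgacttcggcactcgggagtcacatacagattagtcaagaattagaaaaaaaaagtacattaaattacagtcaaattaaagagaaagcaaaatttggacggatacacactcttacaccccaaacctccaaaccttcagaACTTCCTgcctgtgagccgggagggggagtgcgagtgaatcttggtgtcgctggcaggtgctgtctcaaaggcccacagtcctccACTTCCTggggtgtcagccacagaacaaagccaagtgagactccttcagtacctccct
Cd3e (chr8:54211721-54212020, minus strand): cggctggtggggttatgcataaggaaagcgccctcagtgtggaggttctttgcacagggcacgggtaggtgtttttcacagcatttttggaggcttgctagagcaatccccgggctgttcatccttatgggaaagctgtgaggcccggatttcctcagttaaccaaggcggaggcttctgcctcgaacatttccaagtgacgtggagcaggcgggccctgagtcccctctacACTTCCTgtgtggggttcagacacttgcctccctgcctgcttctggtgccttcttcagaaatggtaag
Cd2 (chr2:191412610-191412909, minus strand): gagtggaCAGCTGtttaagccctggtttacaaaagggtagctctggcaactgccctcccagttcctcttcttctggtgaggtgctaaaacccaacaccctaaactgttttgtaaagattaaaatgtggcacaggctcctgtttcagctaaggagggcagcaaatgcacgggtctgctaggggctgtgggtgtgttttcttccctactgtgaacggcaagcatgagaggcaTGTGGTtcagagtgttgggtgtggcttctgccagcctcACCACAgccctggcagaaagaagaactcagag
The Cd8a window held none of the 4 motifs. The Cd247 window held the ETS letters at 93 and 8 bases before the start, and the Cd3e window held them at 18 bases before it. The Cd2 window held the E-box letters 243 bases before the start and the RUNX letters on both strands, 20 bases before and 18 bases after it. No 2 of these matches overlapped. Of the 7 windows, 3 held the ETS letters (Cd247, Cd3e and Cd5), 3 the E-box letters (Cd2, Cd3g and Cd5), 1 the RUNX letters (Cd2) and 0 the GATA letters. Among all 33469 windows of this length, the shares were 8.41% for ETS, 15.1% for E-box, 17.3% for RUNX and 11.6% for GATA. A match is a run of letters and does not show a bound site.

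The isolates were sequenced to 11477533 to 12930732 total counts, the day 7 lungs to 15011692 to 23590070, the day 56 lungs to 14415060 to 22961232 and the spleen fractions to 8737138 to 12560401. Levels are given in CPM, the count of a gene scaled to the total of its library. Il6 itself had 8 and 17 counts in IL6KO isolates against 48 and 20 in WT isolates, 2 to 8 in IL6KO against 5 to 11 in WT day 7 lung, 0 to 3 in IL6KO against 5 to 6 in WT day 56 lung and 0 in each spleen library, which is too few to check the genotypes firmly. In day 56 lung the WT library 3 stood apart: the number of all genes called between genotypes was 2 with it and 1268 without it, so the results that rest on it are also given without it. The genome build named for the rat samples is a mouse build, and how this bears on the rat counts was not tested.

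CD4 isolation raised the T cell genes by large factors over whole lung, in both genotypes. The comparison asks how pure the isolates are, and Cd4 itself cannot answer it, since CD4 protein was used to take the cells. In bulk RNA, more or fewer cells of a type and more or less RNA per cell cannot be told apart. Cd3e, which encodes the epsilon chain, had 497 and 449 CPM in IL6KO isolates, against 7.84, 7.95 and 6.34 CPM in IL6KO whole lungs. In WT it had 618 and 613 CPM in isolates, against 5.73, 9.07 and 7.84 CPM in whole lungs. No isolate came near any lung. The log2 fold change of isolates over lung was 6.20 in IL6KO (SE 0.16, adjusted p = 9.76e-12) and 6.64 in WT (SE 0.16, adjusted p = 8.73e-12). Each adjusted p of a gene is from the quasi-likelihood test of edgeR, with Benjamini-Hochberg adjustment across every gene tested.

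In WT, 10 of the 10 genes were higher in isolates than in lung, where 37.7% of all 14772 genes tested were called higher. The log2 fold changes ran between 3.19 (Cd8b) and 6.77 (Cd3d), with a median of 5.85, while the median of all genes was -0.12. In IL6KO, 9 of the 10 were higher, where 36.4% of all genes were called higher, with a median of 5.35 against -0.12 over all genes. The exception was Cd8a, the gene of the CD8 alpha chain, at -0.10 (SE 0.20, adjusted p = 0.645). Cd8a had 13.4 and 11.0 CPM in IL6KO isolates, against 16.6, 16.6 and 11.9 CPM in IL6KO whole lungs, and these ranges overlap. In WT, Cd8a had 128 and 96.1 CPM in isolates, against 8.99, 11.4 and 9.08 CPM in lungs, a 14.0-fold difference on the fitted scale (log2 fold change 3.81, SE 0.18, adjusted p = 2.26e-09). Scaling by library totals alone, with no scaling factor, moved the median of all genes to -0.43 in WT and -0.32 in IL6KO without changing the count of these genes called in either genotype. Markers of some other cells were higher in isolates than in lung too. Of 15 macrophage and monocyte markers, 12 were higher and 1 lower in IL6KO, and 10 higher and 1 lower in WT. Of 10 neutrophil markers, 6 were higher and 1 lower in IL6KO, and 8 higher and 0 lower in WT. The summed CPM of macrophage and monocyte markers was nonetheless lower in isolates, at 10374 to 14722 against 16861 to 21727 in lung in IL6KO. In WT it was 9436 to 9556 against 16603 to 18884. Of 12 NK cell markers, 2 were higher and 6 lower in IL6KO, and 6 higher and 4 lower in WT. Of 14 B cell markers, 5 were higher and 5 lower in IL6KO, and 4 higher and 9 lower in WT. All 11 endothelial and all 11 smooth muscle and fibroblast markers were lower in both genotypes.

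**Figure D1:**
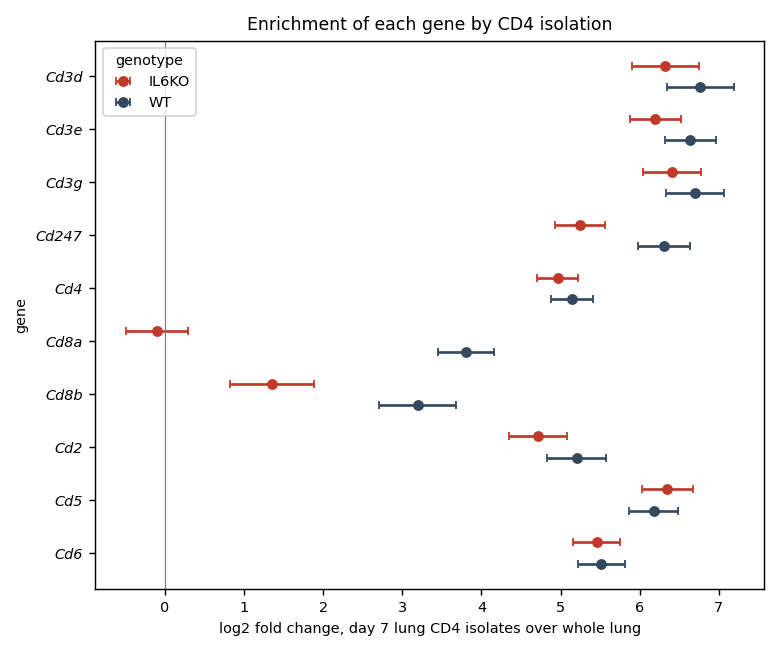
Log2 fold change of day 7 lung CD4 isolates over whole lung (x axis) for each of the 10 genes (rows), with 95% intervals, in IL6KO (red, upper) and WT (dark, lower). Cd8a lies at -0.10 in IL6KO and at 3.81 in WT, and Cd8b at 1.35 in IL6KO and 3.19 in WT, while the other 8 genes lie between 4.72 and 6.77 in both genotypes.

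The difference between these enrichments was tested directly, as the interaction of genotype and isolation. It was lower in IL6KO for 3 of the 10 genes, against 4.55% of all genes called lower and 1.88% called higher. Cd8a had a log2 difference of -3.91 (SE 0.27, adjusted p = 6.95e-05), Cd8b, the gene of the CD8 beta chain, by -1.84 (SE 0.37, adjusted p = 0.0147) and Cd247, which encodes the zeta chain, by -1.06 (SE 0.23, adjusted p = 0.0187). The other 7 ran between -0.49 (Cd2) and 0.18 (Cd5) and were not called. The interaction is the genotype difference in isolates less that in day 7 lung, so a higher level in IL6KO lung lowers it too. In lung alone the log2 fold changes, IL6KO over WT, were 0.60 for Cd8a, 0.16 for Cd8b and 0.48 for Cd247, none called. Between the isolates they were -3.23, -1.60 and -0.50. The interaction of all genes had a median of -0.11, and with no scaling factor it was 0.01 and the split of calls was 404 higher and 440 lower in place of 277 and 672. The 3 calls held with that scaling. Marker lists of other cells moved in this interaction too. Lower in IL6KO were 4 of 12 NK cell markers (median -1.43), 10 of 12 alveolar epithelial markers (median -1.63) and 4 of 11 smooth muscle and fibroblast markers (median -0.85). So were 2 of 11 endothelial, 1 of 10 neutrophil and 1 of 8 platelet markers. For the NK cell markers the median between isolates was -0.26, with 1 of 11 lower in IL6KO. In day 7 lung it was 1.09, with 7 of 11 higher in IL6KO. Higher in this interaction were 4 of 15 macrophage and monocyte markers (median 0.64), 2 of 14 B cell and 1 of 9 erythroid markers. Their part in the values of these genes was not tested. The Cd8b and Cd247 calls ended without WT isolate 1 (adjusted p = 0.0503 and 0.0696) and without IL6KO isolate 2 (adjusted p = 0.0539 and 0.0636), and the Cd247 call also without IL6KO whole lung 2 (adjusted p = 0.0676).

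Between the isolates themselves, 6 of the 10 genes were lower in IL6KO than in WT and 0 were higher, against 2.91% of all 12243 genes called lower and 3.50% called higher. The CD8 coreceptor genes differed most. Cd8a had 159 and 126 counts in IL6KO isolates, 13.4 and 11.0 CPM, against 1493 and 1242 counts in WT isolates, 128 and 96.1 CPM. This was 9.38-fold lower in IL6KO (log2 fold change -3.23, SE 0.19, adjusted p = 0.00327), and 0.123% of all genes had a more negative change. Cd8b had 4.03 and 3.05 CPM in IL6KO isolates, against 10.03 and 11.1 CPM in WT isolates. It was 3.03-fold lower in IL6KO (log2 fold change -1.60, SE 0.22, adjusted p = 0.0103). Cd4 had 782 and 741 CPM in IL6KO isolates, against 598 and 642 CPM in WT isolates. The groups of 2 did not overlap, and the log2 fold change of 0.27 (SE 0.08, adjusted p = 0.0832) was not called. With no filter on low counts it was called, at 0.29 (adjusted p = 0.0457).

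The CD3 chain genes were lower in IL6KO isolates by smaller amounts. Cd247 had 233 and 204 CPM in IL6KO isolates, against 305 and 303 CPM in WT isolates (log2 fold change -0.50, SE 0.09, adjusted p = 0.0225). Cd3d, which encodes the delta chain, had 185 and 172 CPM in IL6KO, against 251 and 228 CPM in WT (-0.45, SE 0.09, adjusted p = 0.0329). In both genes the higher IL6KO library lay below the lower WT library. Cd3e had 497 and 449 CPM in IL6KO, against 618 and 613 CPM in WT (-0.41, SE 0.08, adjusted p = 0.0315). Cd3g, the gene of the gamma chain, had 225 and 198 CPM in IL6KO, against 263 and 259 CPM in WT. Its log2 fold change of -0.33 (SE 0.09, adjusted p = 0.0738) was not called.

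Of the other T cell surface genes, Cd2 had 119 and 112 CPM in IL6KO isolates, against 148 and 157 CPM in WT isolates, and was called (log2 fold change -0.42, SE 0.08, adjusted p = 0.0300). Cd6 had 277 and 232 CPM in IL6KO, against 278 and 294 CPM in WT (-0.20, SE 0.10, adjusted p = 0.288). Cd5 had 251 and 235 CPM in IL6KO, against 240 and 261 CPM in WT (-0.07, SE 0.08, adjusted p = 0.667), and the groups overlapped. In all, 8 of the 10 genes were lower in IL6KO without overlap between the libraries and 1 (Cd4) was higher, where 25.2% of all genes were lower without overlap and 30.1% higher. The median log2 fold change of the 10 genes was -0.42 and that of all genes was near 0 (-0.0042). Without WT isolate 1, and likewise without WT isolate 2, Cd8a was the 1 gene still called, while the log2 fold changes without each were -1.65 and -1.54 for Cd8b, -0.48 and -0.52 for Cd247, -0.37 and -0.53 for Cd3d, -0.39 and -0.43 for Cd3e and -0.45 and -0.39 for Cd2. Without IL6KO isolate 2 the calls of Cd3e (adjusted p = 0.0558) and Cd2 (adjusted p = 0.0544) ended. In a fit together with the day 7 lungs, chosen after seeing the data, 3 genes were called (Cd8a, Cd8b and Cd247).

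**Figure D2:**
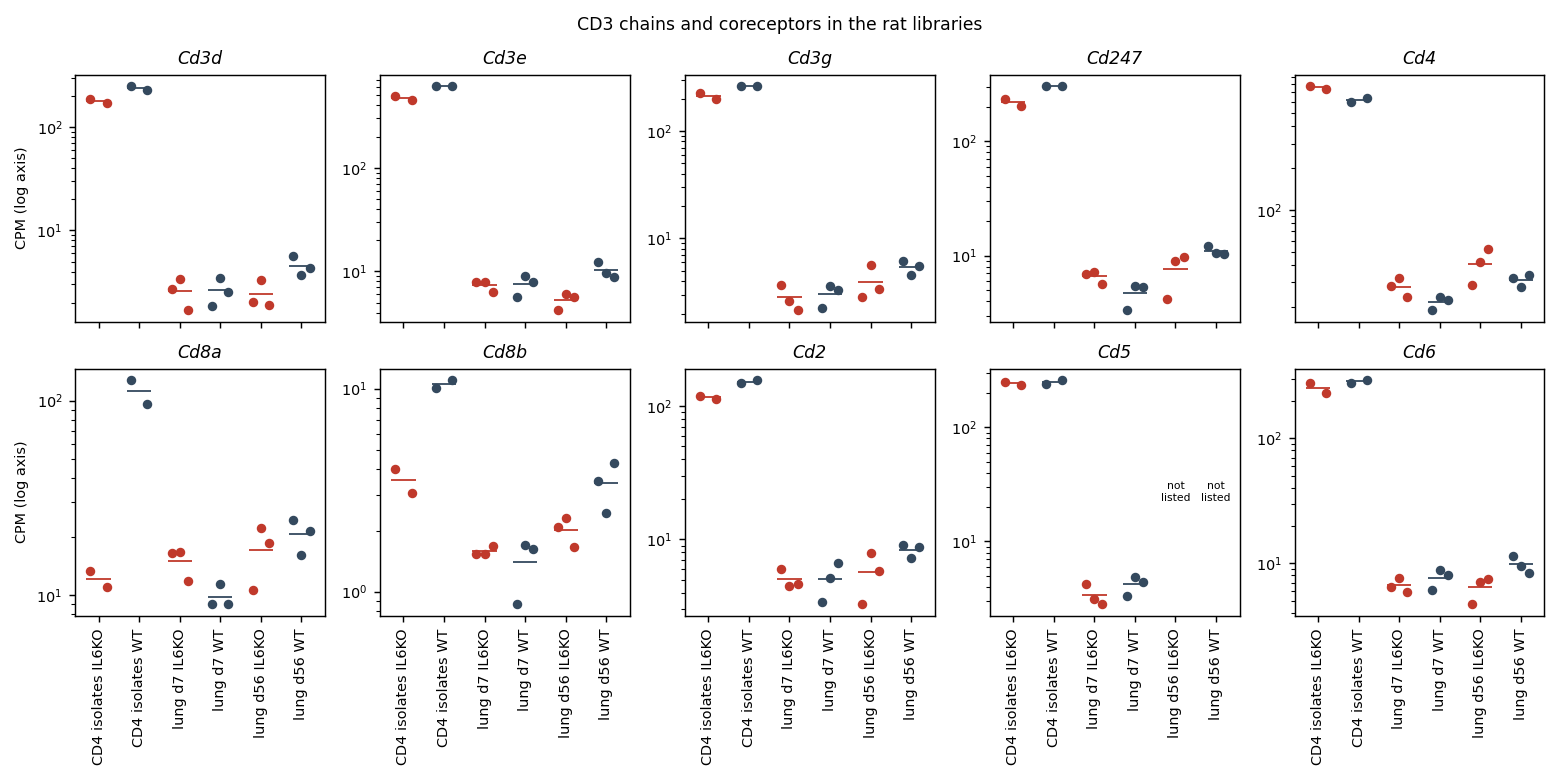
CPM of each of the 10 genes in the 16 rat libraries (y axis, log scale, own range in each panel). Points are libraries (red IL6KO, dark WT) and bars are group means. The IL6KO isolates lie at 11.0 and 13.4 CPM for Cd8a, within the span of the whole lungs (8.99 to 24.3 CPM), while the WT isolates lie at 96.1 and 128 CPM.

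Over all rat groups, the mean level of Cd8a was highest in WT isolates (112 CPM), followed by WT day 56 lung (20.6), IL6KO day 56 lung (17.1), IL6KO day 7 lung (15.0), IL6KO isolates (12.2) and WT day 7 lung (9.84). Each neighbouring pair after the first overlapped between libraries. For Cd3d, Cd3e, Cd3g, Cd247, Cd2 and Cd6, both isolate groups lay above every lung library, with WT isolates above IL6KO isolates in the mean. For Cd4 the order of the isolates was the other way round, with means of 761 CPM in IL6KO isolates and 620 CPM in WT isolates.

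Ratios of counts within a library need no scaling between libraries, so they were used as a second reading of the isolates. They compare groups and are not numbers of molecules, because the genes differ in length. Cd8a had 1.71 and 1.48 counts for every 100 Cd4 counts in IL6KO isolates, against 21.4 and 15.0 in WT isolates. In day 7 whole lung the ratio was 58.2, 51.8 and 50.8 in IL6KO and 47.7, 48.6 and 40.7 in WT. Each isolate lay below each lung. Over both genotypes the ratio in isolates was 9.24-fold lower than in lung (log2 difference -3.21, two-sided exact permutation test within genotype, p = 0.01, the smallest this design allows). Adjusted over the 15 ratio tests p was 0.075, and 0 of the 15 passed 0.05 after adjustment. The cells were taken by CD4 protein, which favours a low ratio in isolates, so this test does not measure purity. The fold over both genotypes joins unlike values. The mean for every 100 Cd4 counts was 1.60 in IL6KO isolates, against 53.6 in IL6KO lungs. In WT it was 18.2 in isolates, against 45.7 in lungs. Between the isolates, the ratio was 11.2-fold lower in IL6KO without overlap (exact p = 0.33, the smallest that 2 against 2 allows, adjusted p = 0.417).

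The beta to alpha ratio went the other way in the isolates. Cd8b had 30.2 and 27.8 counts for every 100 Cd8a counts in IL6KO isolates, against 7.84 and 11.5 in WT isolates, a log2 difference of 1.62 (exact p = 0.33, adjusted p = 0.417). In whole lung it ranged from 9.19 to 14.2 in IL6KO and from 9.63 to 17.8 in WT at day 7, and from 8.92 to 19.6 in IL6KO and from 14.5 to 20.0 in WT at day 56. Both IL6KO isolates lay above every lung library. Cd4 had 157 and 165 counts for every 100 Cd3e counts in IL6KO isolates, against 96.6 and 105 in WT isolates. In day 7 lung this ratio was 363, 404 and 369 in IL6KO and 329, 259 and 285 in WT, so it was 2.59-fold lower in isolates than in lung (log2 difference -1.37, exact p = 0.01, the smallest this design allows, adjusted p = 0.075).

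**Figure D3:**
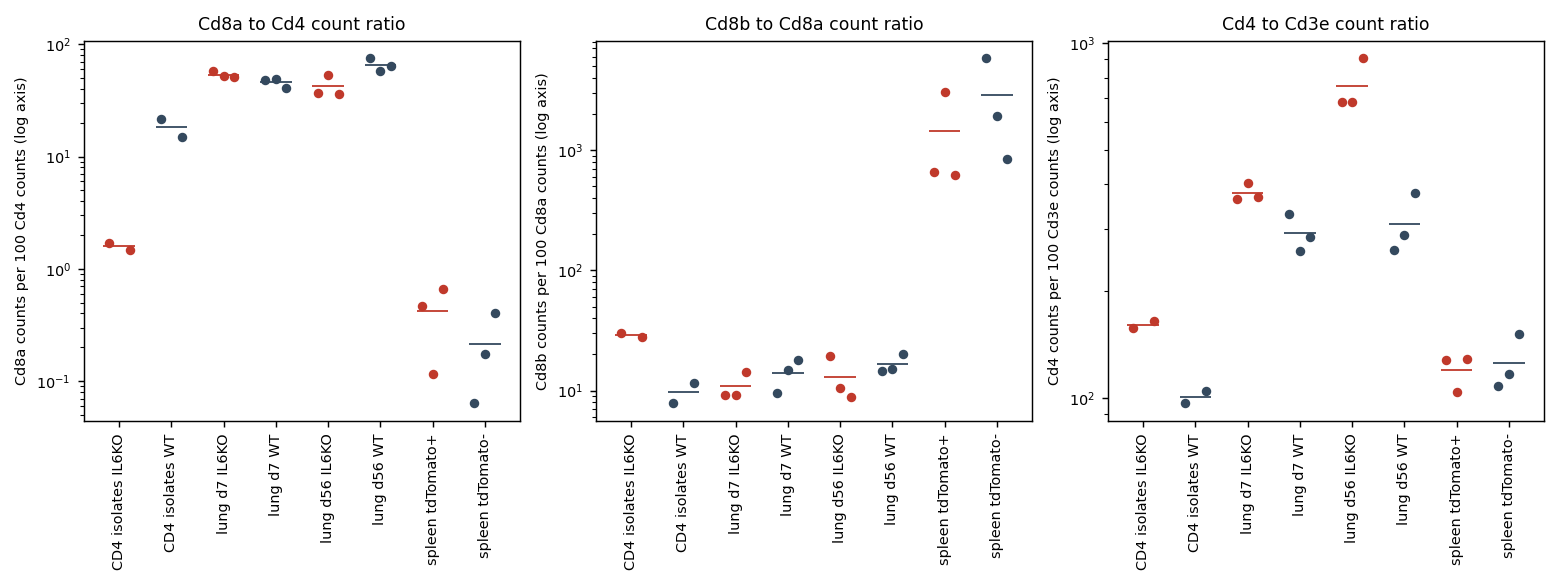
Counts of one gene per 100 counts of another in each of the 22 libraries (y axes, log scale): Cd8a per 100 Cd4, Cd8b per 100 Cd8a and Cd4 per 100 Cd3e. Points are libraries and bars are means, in red for IL6KO or tdTomato-positive and dark for WT or tdTomato-negative. Cd8a per 100 Cd4 is 1.71 and 1.48 in IL6KO isolates and 21.4 and 15.0 in WT isolates, and below 1 in every spleen library, where Cd8a has 3 to 38 counts.

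The isolates also held transcripts of other cells, and some of these differed between genotypes together with the coreceptor genes. Macrophage and monocyte markers summed to 10374 to 14722 CPM in IL6KO isolates and 9436 to 9556 CPM in WT isolates, and 3 of 15 tested were higher in IL6KO (Csf1r, Adgre1 and Cd68) with 0 lower. Lyz2, a lysozyme gene on this list, had 6441 to 9684 CPM in IL6KO isolates and 6283 to 6760 CPM in WT isolates. Csf1r had 1532 to 1541 CPM in IL6KO isolates and 870 to 899 CPM in WT isolates, so neither set is free of transcripts of this list. Of 11 NK cell markers tested, 0 were higher and 1 (Nkg7, log2 fold change -1.12, SE 0.21, adjusted p = 0.0272) was lower. Their sums were 182 to 290 CPM in IL6KO isolates and 223 to 228 CPM in WT isolates, with Klrk1 and Prf1 the most abundant. Alveolar epithelial markers summed to 1165 to 1192 CPM in IL6KO and 2349 to 3302 CPM in WT, with 10 of 12 lower in IL6KO. Erythroid markers summed to 6436 to 13762 CPM in IL6KO and 1977 to 3090 CPM in WT, with 2 of 8 higher. Neutrophil markers summed to 477 to 555 CPM in IL6KO and 787 to 1372 CPM in WT, with 1 of 9 lower, and B cell markers to 185 to 190 CPM in IL6KO and 133 to 136 CPM in WT, with 2 of 12 higher. Of endothelial markers 1 of 8 was lower, of smooth muscle and fibroblast markers 3 of 11 were lower, and of dendritic cell (6 tested) and platelet (3 tested) markers 0 were called. Of 15 other T cell surface genes, 1 was higher (Cd244, log2 fold change 0.98) and 1 lower (Lag3, -1.16). The part of these cells in the differences of the CD3 and coreceptor genes was not tested.

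**Figure D4:**
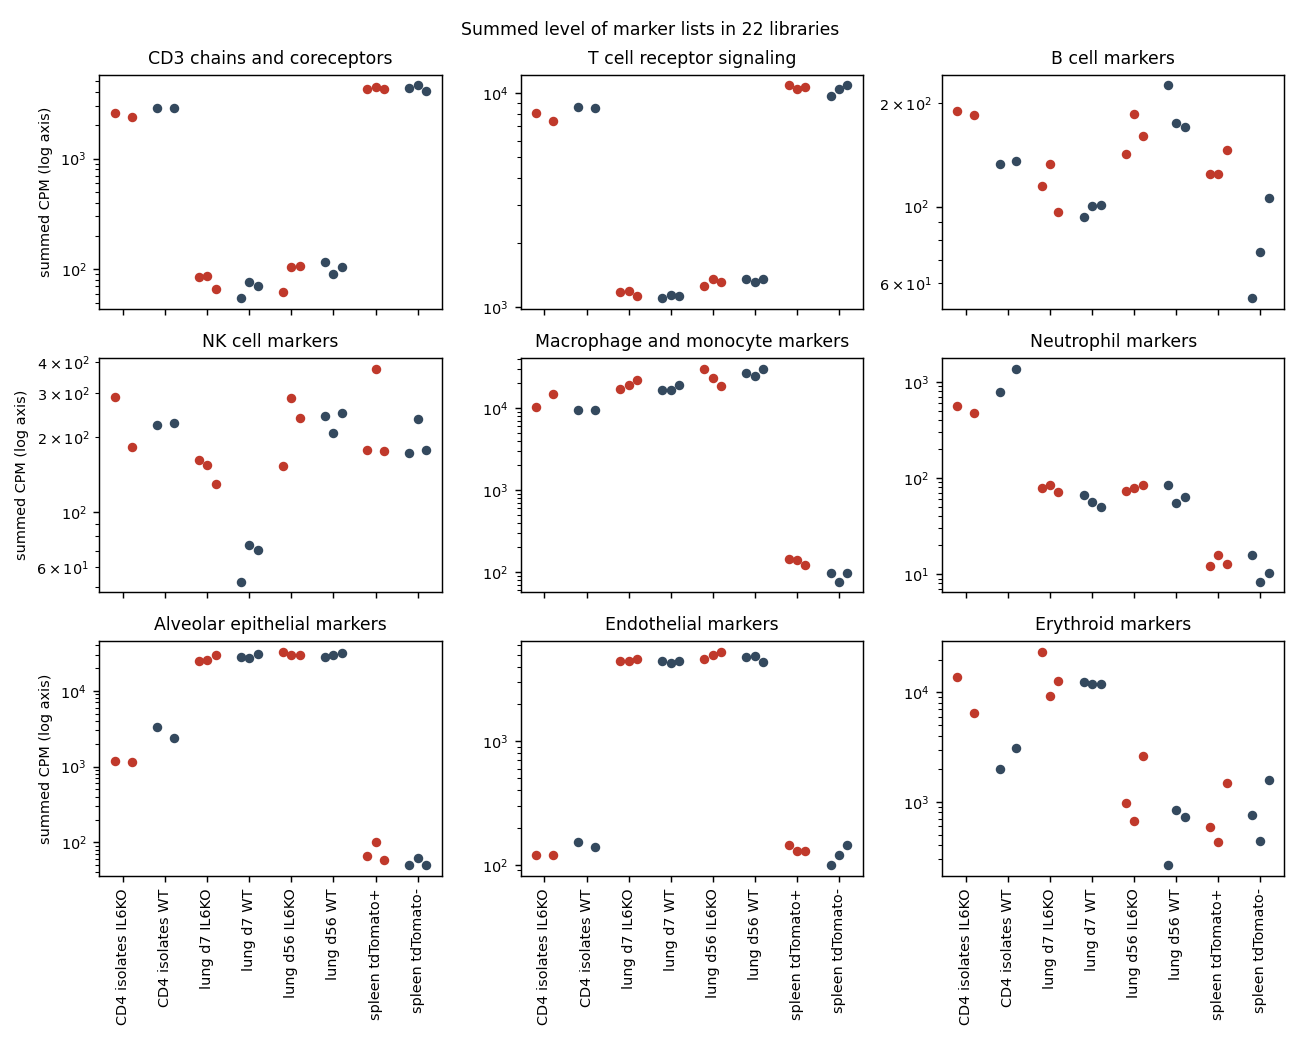
Summed CPM of the 10 genes, of T cell receptor signaling genes and of markers of 7 other kinds of cell (y axes, log scale, own range in each panel) in each of the 22 libraries, in red for IL6KO or tdTomato-positive and dark for WT or tdTomato-negative. The 10 genes sum to 2357 to 2588 CPM in IL6KO isolates and 2837 to 2864 CPM in WT isolates, and to 4217 to 4387 CPM in tdTomato-positive and 4100 to 4592 CPM in tdTomato-negative spleen cells.

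In day 7 whole lung, 0 of the 10 genes were called between IL6KO and WT by edgeR, where 2.09% of all 14368 genes were. Without adjustment 3 of 10 had a p under 0.05 (Cd8a, Cd4 and Cd247), where 14.2% of all genes did, DESeq2 called 1 and limma-voom called 0. Cd8a was on the opposite side from the isolates, with 16.6, 16.6 and 11.9 CPM in IL6KO lungs, against 8.99, 11.4 and 9.08 CPM in WT lungs. The groups did not overlap, and the log2 fold change was 0.60 (SE 0.16, adjusted p = 0.111). DESeq2 gave Cd8a an adjusted p of 0.0339, and without IL6KO lung 3 edgeR gave 0.0277. Cd247 had 6.96, 7.21 and 5.68 CPM in IL6KO, against 3.33, 5.38 and 5.35 CPM in WT, also without overlap (0.48, SE 0.20, adjusted p = 0.319). These were the 2 genes that did not overlap, both higher in IL6KO, where 8.85% of all genes were higher and 9.83% lower without overlap.

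Cd4 had 28.4, 32.1 and 23.4 CPM in IL6KO day 7 lungs, against 18.9, 23.5 and 22.3 CPM in WT lungs (0.37, SE 0.13, adjusted p = 0.227). The lowest IL6KO lung lay just under the highest WT lung. The other 7 genes ran between -0.32 (Cd5) and 0.16 (Cd8b) and overlapped. In the same lungs, NK cell markers summed to 129 to 162 CPM in IL6KO and 52.6 to 74.0 CPM in WT, and 7 of 11 tested were higher, where 0.933% of all genes were called higher. Rat NK cells carry the CD8 alpha chain, and the part of these cells in the Cd8a and Cd247 values was not tested.

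In day 56 whole lung, 0 of the 9 genes listed were called by edgeR, where 0.0138% of all 14475 genes were. Without adjustment 4 of 9 had a p under 0.05 (Cd3e, Cd3d, Cd8b and Cd6), where 11.4% of all genes did, DESeq2 called 1 (Cd3e) and limma-voom 0. Of the 9 genes, 8 had a negative log2 fold change, with a median of -0.58 against -0.01 over all genes. Cd3e had 4.22, 6.10 and 5.70 CPM in IL6KO lungs, against 12.3, 9.62 and 8.88 CPM in WT lungs. Its log2 fold change was -0.97 (SE 0.20, adjusted p = 0.349), and without WT lung 3 it was -1.06 and called (adjusted p = 0.0315). Cd3d had 2.02, 3.32 and 1.92 CPM in IL6KO, against 5.60, 3.70 and 4.30 CPM in WT (-0.93, SE 0.28, adjusted p = 0.407). In both genes every IL6KO lung lay below every WT lung.

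Cd247, Cd6 and Cd8b also lay lower in each IL6KO day 56 lung than in each WT lung. That makes 5 of 9 genes lower without overlap and 0 higher, where 7.25% of all genes were lower and 8.94% higher without overlap. Without WT lung 3 the count was again 5 lower and 0 higher, with 22.5% of all genes lower and 24.9% higher. Cd8b had 2.08, 2.31 and 1.67 CPM in IL6KO, against 3.53, 2.44 and 4.30 CPM in WT (-0.77, SE 0.28, adjusted p = 0.414). Cd6 had 4.69, 7.11 and 7.42 CPM in IL6KO, against 11.5, 9.45 and 8.39 CPM in WT (-0.63, SE 0.21, adjusted p = 0.414). Cd8a overlapped, with 10.6, 22.1 and 18.7 CPM in IL6KO, against 24.3, 16.0 and 21.5 CPM in WT (-0.29, SE 0.26, adjusted p = 0.649). Cd4 was the gene with a positive value, with 28.7, 41.7 and 51.8 CPM in IL6KO, against 32.2, 27.8 and 33.6 CPM in WT (0.36, SE 0.20, adjusted p = 0.475). Without WT lung 3 the log2 fold changes were -0.97 for Cd3d, -0.58 for Cd8b, -0.73 for Cd6, -0.59 for Cd247, -0.26 for Cd8a and 0.42 for Cd4, and 0 of these 6 were called.

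Cd4 and Cd3e were set against each other within each day 56 lung. Cd4 had 680, 683 and 908 counts for every 100 Cd3e counts in IL6KO, against 261, 289 and 379 in WT. The ratio was 2.45-fold higher in IL6KO without overlap (log2 difference 1.29, exact p = 0.1, the smallest that 3 against 3 allows, adjusted p = 0.25). Cd8a had 37.1, 53.0 and 36.1 counts for every 100 Cd4 counts in IL6KO, against 75.4, 57.7 and 63.9 in WT (log2 difference -0.66, exact p = 0.1, adjusted p = 0.25). Without WT lung 3 the log2 differences were 1.45 for Cd4 to Cd3e and -0.67 for Cd8a to Cd4. In these lungs macrophage and monocyte markers summed to 18606 to 29582 CPM in IL6KO and 24812 to 30380 CPM in WT, with 0 of 14 called. Most of each sum was Lyz2, at 17719 to 28550 CPM in IL6KO and 23901 to 29318 CPM in WT. Csf1r, the next most abundant, had 287, 348 and 334 CPM in IL6KO, against 252, 247 and 261 CPM in WT. Of the 14 markers, 6 had a positive and 8 a negative log2 fold change. The part of these cells in the ratio was not tested.

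**Figure D5:**
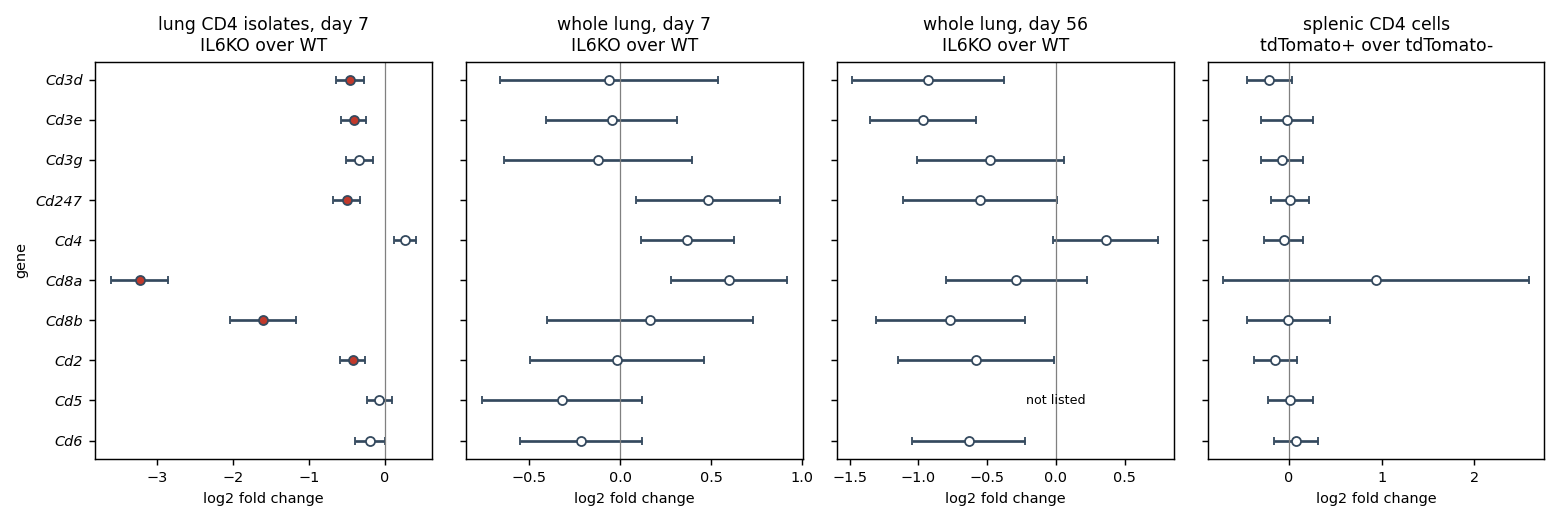
Log2 fold change with 95% intervals (x axes) of each of the 10 genes (rows) in the 4 comparisons within a table, IL6KO over WT or tdTomato-positive over tdTomato-negative. Filled points were called at an adjusted p under 0.05 in edgeR: 6 in the lung CD4 isolates, 0 in each of the other 3 comparisons. Axis ranges differ between panels, and Cd5 has no point in day 56 lung.

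Across days, 3 of 9 genes were higher at day 56 than at day 7 in WT lungs, where 6.72% of all 13865 genes were called higher. Cd8b had 3.53, 2.44 and 4.30 CPM at day 56, against 0.866, 1.70 and 1.62 CPM at day 7 (log2 fold change 1.23, SE 0.28, adjusted p = 0.0121). Cd247 had 12.1, 10.5 and 10.4 CPM at day 56, against 3.33, 5.38 and 5.35 CPM at day 7 (1.19, SE 0.27, adjusted p = 0.0107). Cd8a had 24.3, 16.0 and 21.5 CPM at day 56, against 8.99, 11.4 and 9.08 CPM at day 7 (1.03, SE 0.24, adjusted p = 0.0127). In the 3 genes every day 56 library lay above every day 7 library. The Cd8a call ended when any of WT day 56 lung 1, WT day 7 lung 1 or WT day 7 lung 3 was left out (adjusted p of 0.0522 to 0.0567). Without WT day 56 lung 3 the 3 calls held, at 1.05 for Cd8b, 1.24 for Cd247 and 1.00 for Cd8a, and 3656 of all genes were called in place of 2048. NK cell markers were higher too in WT, 10 of 12 tested, with sums of 207 to 250 CPM at day 56 and 52.6 to 74.0 CPM at day 7, and B cell markers, 10 of 14. Lower at day 56 in WT were 8 of 11 smooth muscle and fibroblast markers (median -0.59) and 5 of 7 erythroid markers (median -2.58). Their part in the values of these genes was not tested.

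In IL6KO lungs 0 of the 9 genes were called between the days by edgeR, DESeq2 or limma-voom, where 8.32% of all genes were called by edgeR, and 2 of 9 had an unadjusted p under 0.05 (Cd3e and Cd4), close to the 22.1% of all genes that did. Without IL6KO day 56 lung 1, 1 gene was called (Cd4, log2 fold change 0.68, adjusted p = 0.0204). Cd247, at 4.16, 9.06 and 9.69 CPM at day 56 and 6.96, 7.21 and 5.68 CPM at day 7, overlapped (0.16, SE 0.26, adjusted p = 0.780). The difference between genotypes in the change over days was tested directly. It was not called for any of the 9 genes by edgeR, DESeq2 or limma-voom, nor by edgeR for any of 13865 genes (0%), with 4 of the 9 and 1043 of all genes (7.52%) at an unadjusted p under 0.05. Without WT day 56 lung 3, 0 of the 9 and 597 of all genes were called. Its values were negative for all 9 genes in the TMM-scaled fit, between -1.03 (Cd247) and -0.00 (Cd4), and the Cd4 value was positive with no scaling factor (0.0078) and without WT day 56 lung 3 (0.05). Day and table cannot be told apart, since each day was counted in a table of its own.

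The genes downstream of the receptor were read from a list of 29 T cell receptor signaling genes. Between the isolates 1 of 27 tested was called higher in IL6KO and 1 lower, near the shares of all genes (3.50% higher and 2.91% lower). Without adjustment 15 of 27 had an edgeR p under 0.05, where 23.5% of all genes did. The log2 fold change was negative for 20 of the 27 and positive for 7. Pag1, an adaptor that recruits the inhibitory kinase CSK, was higher (log2 fold change 0.79, SE 0.15, adjusted p = 0.0277), and Ptpn22, a phosphatase that restrains the receptor, was lower (-0.49, SE 0.09, adjusted p = 0.0276). The list had a median of -0.14 where the 10 CD3 and coreceptor genes had -0.42. In the interaction of genotype and isolation, 8 of 27 were lower in IL6KO and 0 higher, where 4.55% of all genes were called lower and 1.88% higher. The median was -0.32 against -0.11 over all genes. Both parts enter this interaction: the median of the list, IL6KO over WT, was -0.14 between isolates and 0.14 in day 7 lung. Prkcq, the T cell kinase PKC theta, differed by -0.92 (SE 0.15, adjusted p = 0.00501), Sh2d2a, an adaptor that binds LCK, by -1.25 (SE 0.23), Skap1, an adaptor for integrin activation, by -0.69 (SE 0.15) and Txk, a Tec family kinase, by -1.41 (SE 0.31).

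In isolates against lung, 26 of the 27 signaling genes were higher and 1, the widely expressed adaptor Nck1, lower, in both genotypes. Of all genes 36.4% were called higher and 43.2% lower in IL6KO, and 37.7% higher and 43.6% lower in WT. Skap1 had log2 fold changes of 5.67 in IL6KO and 6.36 in WT, and Lat, the scaffold phosphorylated by ZAP70, of 5.44 in IL6KO and 5.75 in WT. Prkcq had 4.32 in IL6KO and 5.24 in WT, and Trat1, an adaptor of the receptor complex, 6.16 in IL6KO and 7.45 in WT. Between days in WT, 8 of 26 were higher at day 56 and 0 lower, where 6.72% of all genes were called higher. Among them were Lat (1.17, SE 0.23, adjusted p = 0.00513), Sh2d2a (1.14, SE 0.24), Lck (0.89, SE 0.22) and Zap70 (0.86, SE 0.20). Between days in IL6KO 0 of 26 were called by edgeR and 3 had an unadjusted p under 0.05, where 22.1% of all genes did. The smallest p values there were those of Rasgrp1 (0.60, adjusted p = 0.109) and Ubash3a (0.69, adjusted p = 0.191). Between genotypes 0 of 26 were called in day 7 lung (7 at an unadjusted p under 0.05, led by Prkcq at 0.59 and Sh2d2a at 0.80, where 14.2% of all genes were). In day 56 lung 0 of 26 were called, with 2 at an unadjusted p under 0.05 (Lat at -0.89 and Pag1 at 0.88), where 11.4% of all genes were. For the difference between days 0 of 26 were called, with 8 at an unadjusted p under 0.05, led by Sh2d2a at -1.15 and Skap1 at -0.88, where 7.52% of all genes were. The T cell receptor chains could not be read beside CD3: the rat tables list Ptcra, the pre-T alpha chain, of the 8 genes searched, with at most 6 counts in a library, and the constant chain genes are at 0 counts in every spleen library, where all the CD3 chains are high.

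Among splenic CD4-positive cells, 0 of the 10 genes differed between tdTomato-positive and tdTomato-negative fractions in edgeR, DESeq2 or limma-voom, where edgeR called 0.00902% of all 11083 genes. At an unadjusted p under 0.05 there were 0 as well, and the libraries of all 10 overlapped, where 4.86% of all genes were higher and 3.68% lower without overlap. These fits did not use the pairing by mouse, and edgeR with that pairing also called 0 of the 10. Apart from Cd8a, the 95% intervals of the log2 fold change in the unpaired edgeR fit lay between -0.45 and 0.44. Cd4 had 531, 490 and 522 CPM in tdTomato-positive cells, against 520, 539 and 510 CPM in tdTomato-negative cells (-0.05, 95% interval -0.26 to 0.16). Cd3e had 415, 472 and 406 CPM in tdTomato-positive cells, against 482, 462 and 337 CPM in tdTomato-negative cells (-0.02, 95% interval -0.30 to 0.26). Cd8a had 30, 5 and 38 counts in tdTomato-positive cells, 2.50, 0.572 and 3.48 CPM, against 3, 10 and 26 counts, 0.330, 0.940 and 2.07 CPM, in tdTomato-negative cells. The libraries overlapped and the 95% interval was wide, -0.70 to 2.59 (log2 fold change 0.94, SE 0.84, adjusted p = 0.998).

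In the splenic fractions Cd8a had few counts and Cd8b1 had more. Cd8b1 had 16.6, 17.5 and 21.7 CPM in tdTomato-positive cells, against 19.2, 18.1 and 17.6 CPM in tdTomato-negative cells, so there were 624 to 3060 Cd8b1 counts for every 100 Cd8a counts in tdTomato-positive cells and 850 to 5833 in tdTomato-negative cells. Cd8a had 0.117 to 0.667 counts for every 100 Cd4 counts in tdTomato-positive cells and 0.0634 to 0.406 in tdTomato-negative cells, below every rat isolate. Species, tissue and sorting method all differ between these sets and cannot be told apart. Macrophage and monocyte markers, at 10374 to 14722 CPM in IL6KO rat isolates and 9436 to 9556 CPM in WT ones, summed to 121 to 144 CPM in tdTomato-positive and 76.1 to 97.5 CPM in tdTomato-negative spleen cells. None of the 29 signaling genes was called in edgeR or had an unadjusted p under 0.05 in spleen. Plcg1, a phospholipase of the receptor pathway, had a log2 fold change of 0.17 (SE 0.13).

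Per length, the genes can be ordered in the mouse cells, with exon lengths from the GENCODE annotation of GRCm38. In CPM per kilobase of exon (RPKM), Cd3d had 303 ± 16.2 in tdTomato-positive and 343 ± 41.0 in tdTomato-negative cells (SD, n = 3 each). In tdTomato-positive cells Cd2 had 291 ± 21.6, Cd3g 231 ± 12.8, Cd4 128 ± 5.40, Cd6 116 ± 14.7 and Cd3e 106 ± 8.78 RPKM. In tdTomato-negative cells Cd2 had 315 ± 31.3, Cd3g 238 ± 16.4, Cd4 130 ± 3.66, Cd6 107 ± 10.2 and Cd3e 105 ± 19.2 RPKM. Cd3d and Cd2 overlapped, as did Cd6 and Cd3e, and Cd6 overlapped with Cd4 in tdTomato-positive cells and lay below it in tdTomato-negative cells, while Cd3g lay below Cd2 and above Cd4 in every library. Below them in tdTomato-positive cells were Cd247 at 63.7 ± 1.15, Cd5 at 52.2 ± 5.55, Cd8b1 at 12.5 ± 1.85 and Cd8a at 0.601 ± 0.407 RPKM. In tdTomato-negative cells these were Cd247 at 62.0 ± 2.75, Cd5 at 50.5 ± 5.32, Cd8b1 at 12.3 ± 0.566 and Cd8a at 0.306 ± 0.243 RPKM, and the order of these 4 held without overlap in both fractions. On that build Cd3d, Cd3e and Cd3g lie together on chromosome 9 (chr9:44981786-44987339, chr9:44998740-45009627 and chr9:44969572-44980431), Cd8a and Cd8b1 together on chromosome 6 (chr6:71373427-71379173 and chr6:71322788-71337494) and Cd5 and Cd6 together on chromosome 19 (chr19:10717116-10739002 and chr19:10789341-10830058).

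Genes whose level was most like that of the CD3 chains in whole lung were ranked over the 12 lung libraries. The measure was the Pearson correlation of log2(CPM + 1), less the mean of the day, with the mean of Cd3d, Cd3e, Cd3g and Cd247, among 12369 genes with a mean of at least 1 CPM. The libraries share depth and cell makeup, and genotype was not removed, so the values are a description. Less the mean of the day, the CD3 mean was 0.51, 0.17 and 0.25 in WT day 56 lungs. In IL6KO day 56 lungs it was -0.67, 0.01 and -0.28, so a gene that differs by genotype at day 56 can rank high. Outside the CD3 and coreceptor genes, the 8 highest were Chchd7 (r = 0.98), Il21r (0.95), Npm1 (0.93), Zc3hc1 (0.93), Uri1 (0.92), Armc10 (0.92), Kat7 (0.92) and Mrpl3 (0.90), and 109 genes reached 0.8. Among the coreceptor and surface genes, r was 0.89 for Cd6, 0.87 for Cd2, 0.73 for Cd8a, 0.72 for Cd8b and 0.13 for Cd4. Cd4 was 5336th of all genes in that order.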

How the data were processed

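RNA-seq counts per gene were analysed for 22 libraries in 4 tables. Per the file headers these are total counts as the authors deposited them, 1 column per sample and not normalized; the column totals differ, and the values are whole numbers. The submitters' processing notes name the build GRCm38 for rat and mouse samples alike; which aligner, counter and annotation made the counts is not given in the sources used here. All 22 sample columns were used and 0 were left out. Depth per library was 8737138 to 23590070 counts.

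Each of the 4 tables was fitted alone with edgeR 4.0.16 (R 4.3.3; filterByExpr, TMM, quasi-likelihood test, Benjamini-Hochberg adjustment over all genes tested, called under 0.05). Isolates against day 7 lung and day 56 against day 7 lung were fitted over the symbols that both tables list (22071 and 20230). Since those tables were counted separately, table and tissue or day cannot be told apart. Intervals are nominally 95% and are the log2 fold change ± 1.96 SE, with the SE taken from the F statistic of the test. With so few libraries they are narrower than true 95% intervals. For Cd2 in day 56 lung the interval was -1.15 to -0.012, with a quasi-likelihood p of 0.0840. Ratios are differences of mean log2((count + 0.5)/(count + 0.5)), tested by exact two-sided permutation. In spleen the labels pair the fractions by mouse (correlations of deviations 0.03, 0.11 and 0.11), and the paired fit changed no call among the 10 genes. DESeq2 1.42.0, limma-voom (limma 3.58.1), other scaling, no filter, a replicate block and leaving out each library were tried. The fits were tested on simulated counts that had the same spread for every gene and no library that stood apart, unlike day 56 lung. That test therefore does not show how far the calls here hold. PCR reads without molecular identifiers are not independent molecules, so intervals cover counting error and spread between libraries only as these counts show it.

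The genes named are all 10, at most 4 signaling genes per comparison by p, and the 8 genes most like the CD3 chains; single markers of other cells were named after their values were seen. One signaling gene that the rule names is not reported here. The 10 genes and the lists were chosen with earlier results of these data known.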

Additional observations from a re-analysis of the deposited data

Results flagged for a closer look

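The enrichment of 3 genes in CD4 isolates over whole lung differed between genotypes by the interaction test. The log2 difference, IL6KO less WT, was -3.91 for Cd8a, -1.84 for Cd8b and -1.06 for Cd247. The ratio of Cd8a to Cd4 counts moved in opposite directions with genotype in day 7 lung and in the other rat sets: each IL6KO library of day 7 lung lay above each WT library, and each IL6KO library of day 56 lung and of the isolates lay below each WT library. The log2 genotype difference of this ratio in day 56 lung, less that in day 7 lung, was -0.89. In the isolates, less that in day 7 lung, it was -3.72. These differences between sets were not tested.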

How the results depend on the processing

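Counts of the 10 genes called changed by over 1.5 times in 4 cases. In day 7 lung 1 was called with DESeq2 and 1 with a replicate block, against 0. In day 56 lung 1 was called with DESeq2, against 0. In the isolates 3 were called in the fit joint with day 7 lung, which was added after seeing the data, against 6. The other 57 counts under these alternatives moved less. Over fits that left out 1 library, the count ran from 0 to 1 in day 7 lung, 0 to 1 in day 56 lung, 1 to 7 in the isolates, 1 to 3 for genotype by isolation, 2 to 4 for WT between days and 0 to 1 for IL6KO between days; it stayed at 9 for isolates against lung in IL6KO, at 10 in WT and at 0 in spleen and for genotype by day. A lone library left in a group was taken to vary like the others.

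Signs turned for values near 0 (log2). These were Cd2 in day 7 lung with limma-voom (0.014), Cd8b in spleen with DESeq2 (0.0059), RLE scaling (0.0056), library totals (0.025) and no filter (0.0040), Cd3e in spleen with limma-voom (0.0016) and library totals (0.014), and, with library totals, Cd6 for genotype by isolation (0.056) and Cd4 for genotype by day (0.0078). Leaving out 1 library turned others, with these ranges. In day 7 lung they were -0.28 to 0.21 (Cd3d), -0.21 to 0.12 (Cd3e), -0.38 to 0.046 (Cd3g), -0.067 to 0.34 (Cd8b) and -0.23 to 0.22 (Cd2). In spleen they were -0.16 to 0.10 (Cd3e), -0.12 to 0.0010 (Cd3g), -0.0053 to 0.032 (Cd247), -0.13 to 0.081 (Cd8b), -0.050 to 0.10 (Cd5) and -0.024 to 0.15 (Cd6), and -0.15 to 0.092 for the Cd4 to Cd3e ratio. For isolates against lung in IL6KO, Cd8a ran from -0.23 to 0.066. For genotype by isolation, Cd4 ran from -0.30 to 0.0010 and Cd6 from -0.20 to 0.16. Between days in IL6KO they were -0.40 to 0.074 (Cd3d), -0.044 to 0.44 (Cd247), -0.059 to 0.38 (Cd8a), -0.17 to 0.38 (Cd2) and -0.21 to 0.067 (Cd6), and for genotype by day -0.20 to 0.18 (Cd4). The cause was not tested.

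Over all genes, the number called was 565 with DESeq2 and 543 with the block in day 7 lung (300 as reported), 175, 4, 7 and 0 with DESeq2, limma-voom, no filter and the block in day 56 lung (2), 2 and 3 with DESeq2 and the block in spleen (1), 1495 in the joint fit of the isolates (784), 600 with limma-voom for genotype by isolation (949) and 47 with DESeq2 for genotype by day (0). Without 1 library it ran from 94 to 372 in day 7 lung, 1 to 1268 in day 56 lung, 76 to 970 in the isolates, 341 to 1111 for genotype by isolation, 1235 to 3656 for WT between days, 704 to 1666 for IL6KO between days and 0 to 597 for genotype by day. The rat labels do not say whether equal replicate numbers pair the samples. Correlations of deviations within a rat table ran from -0.15 to 0.25. They cannot decide it, since the spleen fractions that the labels pair by mouse had 0.03, 0.11 and 0.11. With the replicate block Cd8a was called in day 7 lung (adjusted p = 0.0438), 6 genes were called in the isolates, 9 for isolates against lung in IL6KO and 10 in WT, 3 for genotype by isolation, 3 for WT between days, and 0 in day 56 lung, in spleen, for IL6KO between days and for genotype by day.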
